A study of Homo sapiens with 6 samples.

Results

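The transcripts of 37 genes of macroautophagy were followed in lung adenocarcinoma cells after knockdown of BCAT1, the cytosolic enzyme that transfers the amino group of branched-chain amino acids to α-ketoglutarate. The genes were chosen by name, as the core autophagy genes, the cargo receptors and the MiT/TFE transcription factors, and all 37 were found among the 60664 genes of the expression table. The cells were 67R cells, an NCI-H1975 non-small cell lung cancer line (EGFR-mutant adenocarcinoma) made resistant to the EGFR tyrosine kinase inhibitor ASK120067 by stepwise exposure. All 6 libraries came from this resistant line, 3 transfected with a negative control siRNA (siNC, labelled NC) and 3 with siRNA against BCAT1 (siBCAT1). The study's methods use the name siBCAT1 for a single siRNA of the BCAT1 siRNAs they describe, so a second siRNA was not part of this comparison. The time after transfection is not given in the sources used here, and the parental cells were not part of the comparison.

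In autophagy, cytoplasm and organelles are wrapped in a double membrane, the autophagosome, and delivered to the lysosome for breakdown. The ULK kinase complex starts the process, a lipid kinase complex around BECN1 and PIK3C3 marks the growing membrane with a phosphoinositide, and 2 ubiquitin-like conjugation reactions attach LC3 and GABARAP proteins to it, to which cargo receptors such as SQSTM1 (p62) bind. Much of the pathway is controlled on proteins, by phosphorylation and lipidation, and the values below are of transcripts.

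Expression is given in TPM, a measure of transcript abundance scaled to gene length and to the library total, so levels can be set side by side between genes but each is relative to all other RNA in its library. Group differences are log2 fold changes of TPM + 1 (siBCAT1 against siNC) with their standard error (SE), from limma with Benjamini-Hochberg adjustment over the 14286 genes that averaged 1 TPM or more across the libraries, and an adjusted p under 0.05 is called past the threshold. The targeted gene was checked before all others. BCAT1 stood at 42.7, 42.2 and 29.8 TPM in the siNC libraries and at 8.78, 7.10 and 8.0 TPM in the siBCAT1 libraries. All siBCAT1 libraries were below all siNC libraries (log2 fold change -2.12, SE 0.15, limma adjusted p = 0.000272, n = 3 and 3). The libraries summed to 992512 to 995593 TPM and listed 23152 to 25043 genes above 0. Of 9 epithelial and lung markers, NKX2-1, SFTPB and NAPSA averaged under 1 TPM, so the lung-lineage markers were near 0 in these cells. The summed epithelial and lung markers spanned 2550 to 2950 TPM in siNC and 1650 to 1940 TPM in siBCAT1 libraries, with KRT7, KRT8, KRT18, KRT19 and CDH1 past the threshold and lower. EPCAM, the other tested marker of this list, was higher in the siBCAT1 libraries without overlap (1.27 ± 0.327 to 2.33 ± 0.334 TPM) but not past the threshold (log2 fold change 0.56, limma adjusted p = 0.0732). The 5 fibroblast markers summed to 12.3 to 18 TPM in siNC and 9.28 to 11.4 TPM in siBCAT1, nearly all of it COL1A1. COL1A1 was past the threshold and lower (log2 fold change -0.68, limma adjusted p = 0.0197), a call that held in 9 of 14 alternative settings of the analysis. COL3A1, too low to be tested, was higher in siBCAT1 without overlap (0.26 ± 0.113 to 0.6 ± 0.168 TPM). The 5 immune markers summed to 30.3 to 39.4 TPM in siNC and 53.6 to 60.8 TPM in siBCAT1, nearly all of it CD68, a lysosomal protein. The 4 endothelial markers summed to at most 0.96 and 2.69 TPM. The fibroblast markers DCN and LUM and the T-cell marker CD3E were at 0. The part of these shifts in the results below was not tested, and in bulk RNA fewer cells of a type and less RNA per cell cannot be told apart.

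All 37 autophagy genes passed the filter on low values, with mean levels from 4.75 TPM for ATG10 to 251 TPM for SQSTM1. Past the threshold were 10 genes. The 7 that were higher after BCAT1 knockdown were ULK2, ATG101 and ATG2A of initiation, BECN1 and WIPI2 of nucleation, MAP1LC3B of conjugation and the receptor TAX1BP1. The 3 that were lower were ULK1, ATG9A and ATG4D. The share past the threshold, 27.0%, equalled that of all tested genes, of which 27.1% passed (16.7% higher and 10.4% lower), so the number of calls is not a result about autophagy genes as a group. The surplus of higher calls among all genes was smaller under other scalings, with 1957 higher and 1802 lower by median-ratio scaling and 2042 and 1865 by quantile normalization, against 2382 and 1483. The same holds for the groups of libraries that did not overlap, which were found for 14 of the 37 genes (37.8%) against 44.1% of all genes. The median log2 fold change was 0.04 over the autophagy genes and 0.04 over all genes tested, and the median size of the change, whatever its sign, was 0.20 and 0.24. Without siBCAT1 replicate 1, or without siBCAT1 replicate 3, 4 genes in place of 7 were called higher, and the 3 calls of lower genes held. Of all genes, 16.9% and 17.5% were called in these settings, in either direction. Direction was mixed within single steps of the pathway, and the changes lay between -0.62 (ULK1) and 0.81 (WIPI2).

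**Figure D1:**
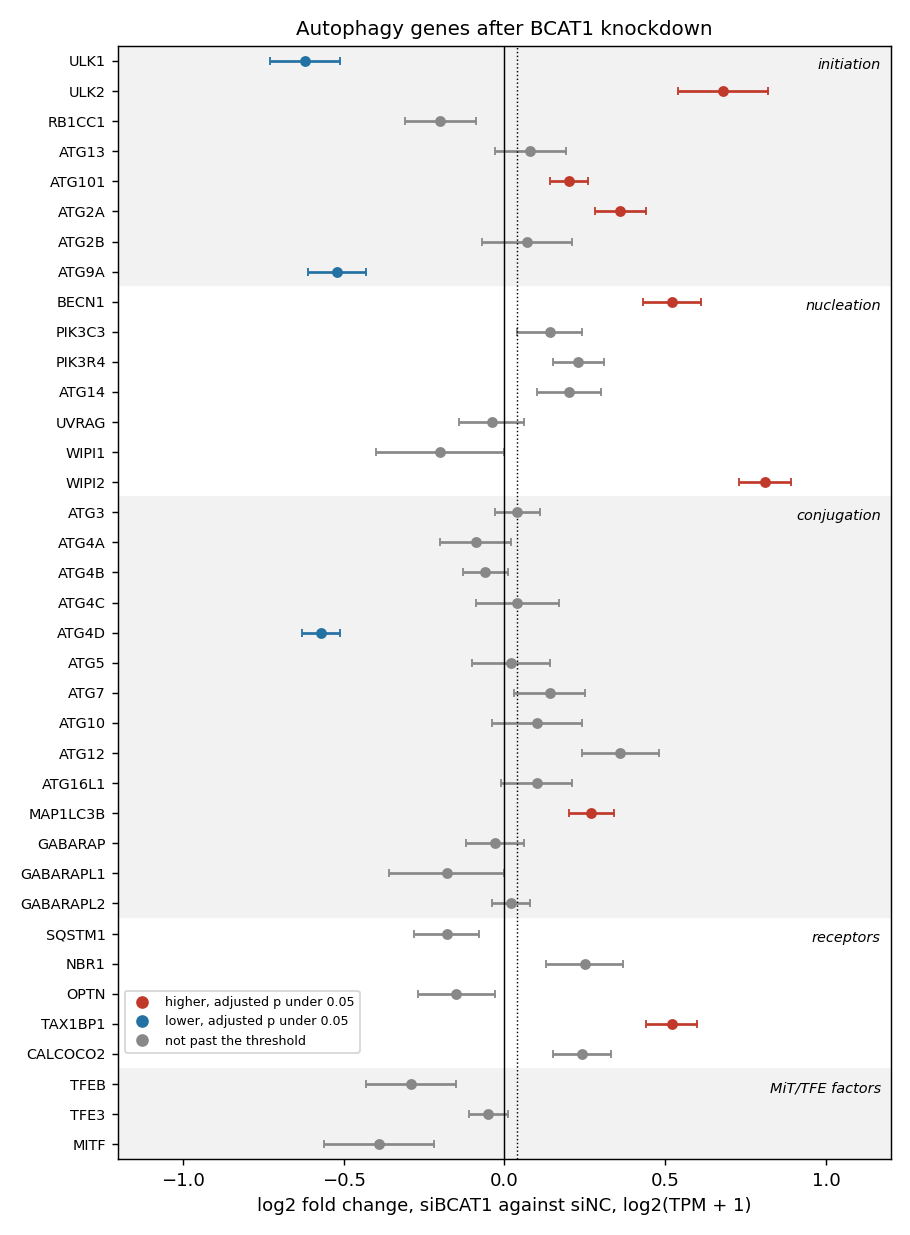
Log2 fold change (siBCAT1 against siNC, on log2(TPM + 1), x axis) of the 37 autophagy genes, grouped by step from top to bottom; bars are ± 1 SE from limma (n = 3 and 3), red and blue points are past the threshold of 0.05, and the dotted line is the median of all tested genes (0.04). WIPI2 lies farthest to the right at 0.81 and ULK1 farthest to the left at -0.62, with ULK2 on the opposite side at 0.68.

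Initiation showed the sharpest contrast, between the kinases ULK1 and ULK2, which act at the same step and can partly stand in for each other. ULK1 (ENSG00000177169, chr12:131894651-131923167 on GRCh38) was expressed at 33.1, 26.5 and 32.9 TPM in the siNC libraries and at 21.7, 18.4 and 18.7 TPM in the siBCAT1 libraries. Every siBCAT1 library lay below every siNC library, and ULK1 fell from 30.9 ± 3.75 to 19.6 ± 1.81 TPM (SD, n = 3 each; log2 fold change -0.62, SE 0.11, limma adjusted p = 0.00768). ULK2 (ENSG00000083290, chr17:19770829-19867936) had 5.50, 4.97 and 5.72 TPM in siNC and 10.8, 9.35 and 7.76 TPM in siBCAT1 libraries. Here the siBCAT1 libraries were all higher, with siBCAT1 replicate 3 the closest to the controls, and ULK2 rose from 5.40 ± 0.386 to 9.29 ± 1.5 TPM (log2 fold change 0.68, SE 0.14, limma adjusted p = 0.011). Both calls held under all 14 alternative settings of the analysis.

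The ULK kinases work with the scaffold RB1CC1 (FIP200) and with ATG13 and ATG101, a pair of proteins that bind each other. ATG101 (ENSG00000123395, chr12:52069246-52077494) had 65.5, 71.1 and 68.9 TPM in siNC and 78.5, 79.9 and 78.5 TPM in siBCAT1 libraries. The groups did not overlap, but the rise was small (68.5 ± 2.81 to 79.0 ± 0.789 TPM, log2 fold change 0.20, SE 0.06, limma adjusted p = 0.0409). The call held in 4 of 14 alternatives and was lost, among others, with median-ratio scaling (adjusted p = 0.155), quantile normalization (0.191), the correction for GC content and length (0.123) and on leaving out any library but siNC replicate 2 (0.0789 to 0.102). RB1CC1 (log2 fold change -0.20, adjusted p = 0.219) and ATG13 (0.08, adjusted p = 0.656) were not past the threshold, so of the complex the kinases themselves carried the larger differences.

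Membrane for the autophagosome is supplied by ATG9A vesicles and by the lipid transfer proteins ATG2A and ATG2B. ATG9A (ENSG00000198925, chr2:219219380-219229717), a transmembrane lipid scramblase, had 72, 81.6 and 74.0 TPM in siNC and 49.6, 58.8 and 49.2 TPM in siBCAT1 libraries. All siBCAT1 libraries were lower, and the level fell from 75.9 ± 5.08 to 52.5 ± 5.42 TPM (log2 fold change -0.52, SE 0.09, limma adjusted p = 0.0064), past the threshold in all 14 alternatives. ATG9A shares its locus with AC068946.2, annotated on the same strand, to which 8.15 and 6.95 TPM were assigned. ATG2A (ENSG00000110046, chr11:64894546-64917248) moved the other way, with 27.0, 26.0 and 30.5 TPM in siNC and 36.8, 34.8 and 36.0 TPM in siBCAT1 libraries. The groups did not overlap (27.8 ± 2.38 and 35.8 ± 1.00 TPM, log2 fold change 0.36, SE 0.08, limma adjusted p = 0.0188), and the call held in 9 of 14 alternatives, being lost with quantile normalization (0.0548), without siNC replicate 1 (0.0675) and without siBCAT1 replicate 1, 2 or 3 (0.0665, 0.0512 and 0.06). Its paralogue ATG2B, at 6.62 TPM on average, had a log2 fold change of 0.07 (adjusted p = 0.72). Of the 8 initiation and membrane supply genes, 3 rose and 2 fell (62.5% past the threshold against 27.1% of all genes). The other 3 did not pass, and the median log2 fold change was 0.08.

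Nucleation held the largest rise of the 37 genes. WIPI2 (ENSG00000157954, chr7:5190188-5233826) binds the phosphoinositide made by PIK3C3 and recruits ATG16L1 to the membrane. It had 35.4, 31.3 and 35.6 TPM in siNC and 62.6, 59.9 and 58.6 TPM in siBCAT1 libraries. The lowest siBCAT1 library was far above the highest siNC library, and the means were 34.1 ± 2.42 and 60.4 ± 2.02 TPM (log2 fold change 0.81, SE 0.08, limma adjusted p = 0.000647; 0.72 to 0.84 over the alternatives, all past the threshold). WIPI1, a related protein, was expressed at 17.5, 10.7 and 15.0 TPM in the siNC and at 15.2, 10.1 and 11.6 TPM in the siBCAT1 libraries. These overlapped, with a log2 fold change of -0.20 (SE 0.20, adjusted p = 0.492).

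BECN1 (Beclin 1; ENSG00000126581, chr17:42810134-42833350), the regulatory subunit of the PIK3C3 lipid kinase complex, had 34.9, 29.2 and 34.0 TPM in siNC and 50.1, 46.3 and 45.2 TPM in siBCAT1 libraries. The groups did not overlap, and BECN1 rose from 32.7 ± 3.03 to 47.2 ± 2.56 TPM (log2 fold change 0.52, SE 0.09, limma adjusted p = 0.00605), past the threshold in all 14 alternatives. PSME3 lies opposite to BECN1 in an overlapping locus and stood at 96.0 and 94.6 TPM in the siNC and siBCAT1 groups. The library kit keeps strand, but whether strand was used in the quantification is not given in the sources used here, so for genes that overlap on opposite strands a transfer of reads between them was not tested. The catalytic subunit PIK3C3 (VPS34; log2 fold change 0.14, adjusted p = 0.317), its partner PIK3R4 (VPS15; 0.23, adjusted p = 0.0862) and ATG14, which directs the complex to autophagy (0.20, adjusted p = 0.195), did not pass. For PIK3R4 and ATG14 the libraries of the groups still did not overlap. UVRAG, which takes the place of ATG14 in the endosomal form of the complex, had a log2 fold change of -0.04 (adjusted p = 0.781). Of the 7 nucleation genes 2 rose and none fell (28.6% past the threshold against 27.1% of all genes), with a median of 0.20.

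The plot of TPM by library shows the 10 genes past the threshold.

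**Figure D2:**
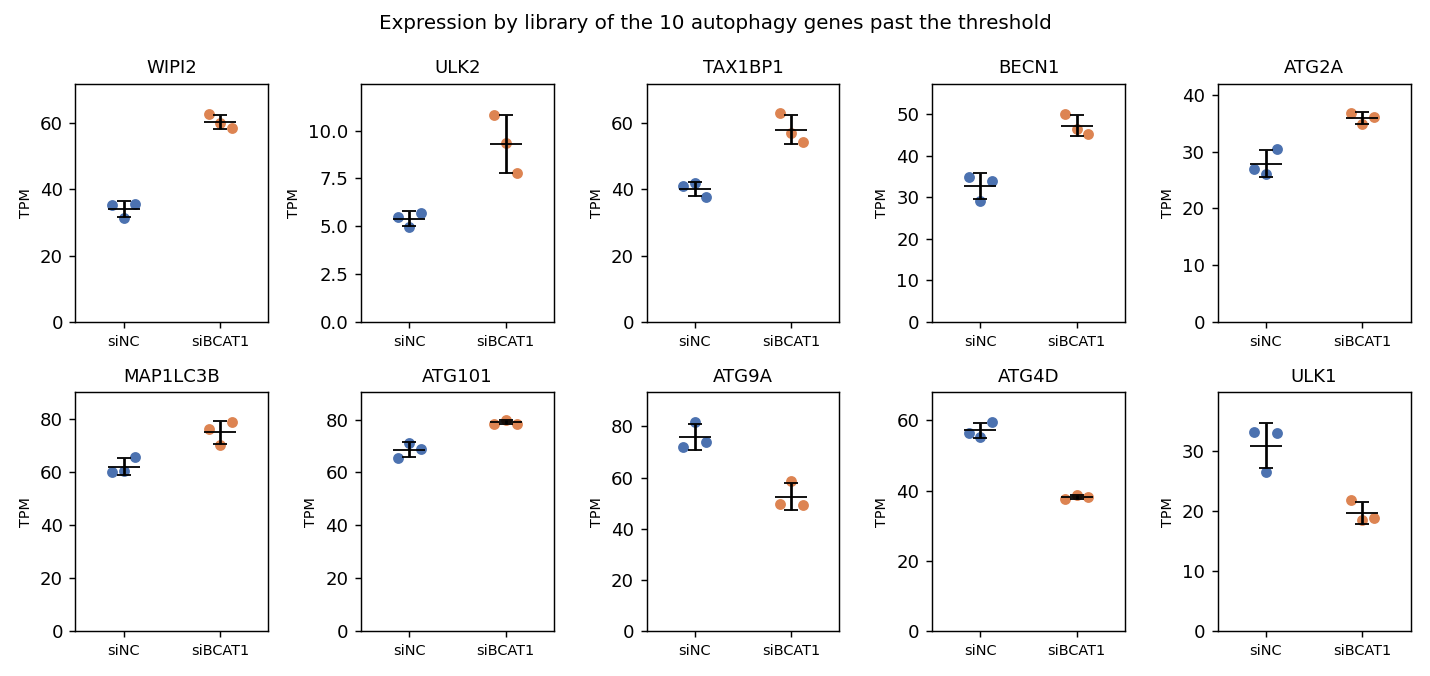
TPM (y axis, linear, from 0, a scale of its own in each panel) of the 10 autophagy genes past the threshold in each of the 3 siNC (blue) and 3 siBCAT1 (orange) libraries; bars are the mean ± SD. In each of the 10 panels the siNC and siBCAT1 libraries do not overlap; the gap is widest relative to the spread for WIPI2 and ATG4D and narrowest for MAP1LC3B.

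Conjugation comprised 14 genes, of which 1 rose, 1 fell and 12 did not pass. This was 14.3% past the threshold against 27.1% of all genes (median log2 fold change 0.03). The enzymes that carry out the reactions were close to level. ATG7, the E1-like enzyme of both reactions, had 19.8, 18.5 and 17.1 TPM in siNC and 19.1, 19.1 and 23.1 TPM in siBCAT1 libraries (log2 fold change 0.14, SE 0.11, limma adjusted p = 0.374). ATG5, which is joined to ATG12, had 14.5, 17.1 and 13.1 TPM in siNC and 13.8, 16.6 and 14.9 TPM in siBCAT1 libraries (0.02, SE 0.12, adjusted p = 0.91). For both genes the groups overlapped. The E2-like enzymes ATG3 and ATG10 (0.04 and 0.10) and ATG16L1, which carries ATG12-ATG5 to the membrane (0.10), did not pass either. ATG10, at 4.75 TPM on average, overlaps RPS23 on the opposite strand, with means of 4050 TPM in siNC and 3940 TPM in siBCAT1. A transfer of reads from RPS23 to ATG10 was not tested. The sign of the values of ATG3 and ATG5 turned with the scaling of the libraries, so no direction is read from them. ATG12 was the nearest to the threshold, with 47.0, 53.5 and 42.6 TPM in siNC and 69.7, 54.8 and 60.6 TPM in siBCAT1 libraries. The groups just did not overlap (log2 fold change 0.36, SE 0.12, limma adjusted p = 0.055), and ATG12 passed in 4 of 14 alternatives, among them without siNC replicate 2 (0.0369). ATG12 overlaps AP3S1 on the opposite strand, with means of 128 TPM in the siNC and 163 TPM in the siBCAT1 group.

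LC3 and GABARAP proteins are made with a tail that ATG4 proteases cut off behind a glycine, which is then joined to phosphatidylethanolamine in the membrane. The last 30 coding bases of the 4 genes (GENCODE 29 on GRCh38, read 5′ to 3′ on the coding strand, stop codon included) are shown because they hold this site, with the codon of the last glycine in capitals. These coding ends lie at chr16:87403068-87403097 (plus strand), chr17:7240854-7240883 (minus), chr12:10221823-10221852 (plus) and chr16:75577340-75577369 (plus), in the order given.
MAP1LC3B: gagacgttcGGGatgaaattgtcagtgtaa
GABARAP: tacagtgacgaaagtgtctacGGTctgtga
GABARAPL1: tacagtgatgagagtgtctatGGGaaatga
GABARAPL2: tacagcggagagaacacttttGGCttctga
In MAP1LC3B 5 codons stand between the glycine and the stop, and in each of the 3 GABARAP genes 1 codon does. GABARAP and GABARAPL1 share 76.8% of their coding bases and GABARAP and GABARAPL2 62.4%.

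MAP1LC3B (ENSG00000140941, chr16:87383995-87404779), whose lipidated product LC3-II is the usual marker of autophagosomes, had 60.0, 60.4 and 65.8 TPM in siNC and 76.1, 70.3 and 78.8 TPM in siBCAT1 libraries. All siBCAT1 libraries were higher, and MAP1LC3B rose from 62.1 ± 3.26 to 75.1 ± 4.32 TPM (log2 fold change 0.27, SE 0.07, limma adjusted p = 0.0302). The call held in 6 of 14 alternatives and was lost, among others, with median-ratio scaling (0.102), quantile normalization (0.096), the correction for GC content and length (0.0814) and without siNC replicate 1 (0.0924), siNC replicate 2 (0.0619), siBCAT1 replicate 1 (0.0888) or siBCAT1 replicate 3 (0.0899). MAP1LC3B2, whose coding sequence is the same at 376 of 378 bases, was given 0.177 and 0.55 TPM, and reads of these genes may have been split in counting. FBXO31, on the opposite strand, was at 26.7 and 28.2 TPM. GABARAP was the most abundant of the 4, with means of 233 ± 23.6 TPM in the siNC and 228 ± 13.8 TPM in the siBCAT1 group (log2 fold change -0.03, adjusted p = 0.842). GABARAPL1 (-0.18, adjusted p = 0.491) and GABARAPL2 (0.02, adjusted p = 0.812) did not pass. The 4 genes summed to 406 ± 31.1 TPM in siNC and 412 ± 17.3 TPM in siBCAT1 libraries, and the share of MAP1LC3B in that sum was 15.3 ± 1.26% and 18.2 ± 1.08%.

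Among the ATG4 proteases ATG4D stood apart. ATG4D (ENSG00000130734, chr19:10543895-10553418) had 56.4, 55.4 and 59.6 TPM in siNC and 37.7, 38.7 and 38.1 TPM in siBCAT1 libraries. The libraries of each group lay close together and the groups were far apart, and ATG4D fell from 57.2 ± 2.20 to 38.2 ± 0.531 TPM (log2 fold change -0.57, SE 0.06, limma adjusted p = 0.00116), past the threshold in all 14 alternatives. KRI1, which overlaps ATG4D on the opposite strand, had a mean of 93.6 TPM in the siNC and 116 TPM in the siBCAT1 group. ATG4B, the main LC3 protease and the most abundant of the family, was at 74.9 ± 2.01 and 72.2 ± 5.70 TPM (-0.06, adjusted p = 0.613). ATG4A (-0.09, adjusted p = 0.574) and ATG4C (0.04, adjusted p = 0.848) did not pass, and both were expressed at under 10 TPM. The family summed to 146 ± 0.734 TPM in siNC and 124 ± 6.94 TPM in siBCAT1, and the share of ATG4D went from 39.2 ± 1.6% to 30.9 ± 1.37%.

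Receptors link ubiquitinated proteins, bacteria or mitochondria to LC3 and GABARAP. TAX1BP1 (ENSG00000106052, chr7:27739331-27844564), a receptor for protein aggregates and bacteria, was the only one of the 5 past the threshold. It had 40.9, 41.9 and 37.7 TPM in siNC and 62.9, 57.0 and 54.2 TPM in siBCAT1 libraries. The groups did not overlap, and TAX1BP1 rose from 40.2 ± 2.17 to 58.0 ± 4.40 TPM (log2 fold change 0.52, SE 0.08, limma adjusted p = 0.00404), past the threshold in all 14 alternatives. SQSTM1 (p62), the most abundant of the 37 genes and itself degraded by autophagy as a protein, had 255, 252 and 294 TPM in siNC and 214, 221 and 272 TPM in siBCAT1 libraries. The groups overlapped, since siBCAT1 replicate 3 was above siNC replicates 1 and 2 (log2 fold change -0.18, SE 0.10, limma adjusted p = 0.236). SQSTM1 overlaps MGAT4B on the opposite strand (140 and 171 TPM). CALCOCO2 (NDP52), a receptor close in build to TAX1BP1, did not pass although its groups did not overlap (0.24, adjusted p = 0.0975), and it passed without siNC replicate 1 (0.0391). NBR1 (0.25, adjusted p = 0.161) and OPTN (-0.15, adjusted p = 0.38) did not pass. With the replicate number as a block in limma, SQSTM1 and NBR1 passed (adjusted p = 0.0374 and 0.0436). With the correction for GC content and length added to the block, neither passed (0.0529 and 0.0601). The share of the 5 receptors past the threshold was 20.0% against 27.1% of all genes, and their median was 0.24.

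The MiT/TFE factors TFEB, TFE3 and MITF switch on autophagy and lysosome genes when they enter the nucleus, which is mainly set by phosphorylation. TFE3 was the most abundant, with 65.8, 61.9 and 64.4 TPM in siNC and 62.9, 59.5 and 63.2 TPM in siBCAT1 libraries (log2 fold change -0.05, SE 0.06, limma adjusted p = 0.597). TFEB had 6.22, 4.76 and 6.07 TPM in siNC and 4.32, 4.09 and 4.95 TPM in siBCAT1 libraries (-0.29, SE 0.14, adjusted p = 0.169). MITF had 6.68, 5.50 and 4.76 TPM in siNC and 3.44, 4.94 and 3.84 TPM in siBCAT1 libraries (-0.39, SE 0.17, adjusted p = 0.128). In all 3 genes the groups overlapped and none passed the threshold. TFE3 made up 85.0 ± 1.22% of the summed TPM of the family in siNC and 87.9 ± 1.10% in siBCAT1.

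These factors bind the E-box CACGTG, often within the longer word TCACGTGA. Both words read the same on either strand, and each TCACGTGA also counts as a CACGTG. RefSeq promoters (GRCh38.p14, windows of equal length around a start site, 1 per gene) were matched for 34 of the 37 genes. For some genes the window lies inside the gene positions given above, as for BECN1 (chr17:42823830-42824129) and MAP1LC3B (chr16:87392086-87392385). Other start sites of these genes were not searched. CACGTG was found in 2 of the 34 (5.88%) and in 7.26% of 35116 promoters, and TCACGTGA in 1 of the 34 (2.94%) and in 0.98% of all. The promoters with the word belonged to ATG14 (chr14:55411834-55411863, minus strand) and ATG3 (chr3:112561951-112561980, minus strand), neither of which was past the threshold. They are shown as the only matches, with CACGTG in capitals.
ATG14: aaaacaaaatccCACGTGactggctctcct
ATG3: CACGTGccgggagagtctagtgtCACGTGa
None of the genes past the threshold with a promoter in the table held the word in this window, which says nothing of binding elsewhere.

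Ratios of related genes were compared within each library. The ratio of ULK1 to ULK2 was 6.02, 5.34 and 5.76 in the siNC libraries and 2.02, 1.97 and 2.41 in the siBCAT1 libraries. All siBCAT1 libraries had the lower ratio, a difference of -1.30 in the mean log2 ratio (of TPM + 1), and the share of ULK1 in the summed ULK transcripts went from 85.1 ± 0.776% to 68.0 ± 2.38%. The sum of the ULK kinases was 36.2 ± 4.11 TPM in siNC and 28.9 ± 3.14 TPM in siBCAT1, which overlapped in single libraries. The ratio of WIPI1 to WIPI2 was 0.494, 0.341 and 0.421 in siNC and 0.242, 0.169 and 0.197 in siBCAT1 libraries (difference -1.01), and that of ATG4C to ATG4D 0.104, 0.09 and 0.0791 against 0.126, 0.138 and 0.158 (difference 0.61). MAP1LC3B against GABARAPL2 differed by 0.25. These 4 of 11 ratios did not overlap between groups. In the exact permutation test (two-sided, 3 against 3 libraries) each of the 4 had p = 0.1, the smallest this design can give, and 0.275 after Benjamini-Hochberg adjustment over the 11 ratios, so the test cannot reach 0.05. The other 7 ratios overlapped between groups, the largest of them SQSTM1 to NBR1 (-0.44, exact p = 0.2) and the smallest ATG4A to ATG4B (-0.04, exact p = 0.4). Since ULK1, ULK2, WIPI2, ATG4D and MAP1LC3B were already described as past the threshold, these ratios restate their opposite or unequal changes within a library. The plain TPM ratios are free of the library's scaling, and the log2 differences depend on it only through the added 1 TPM.

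**Figure D3:**
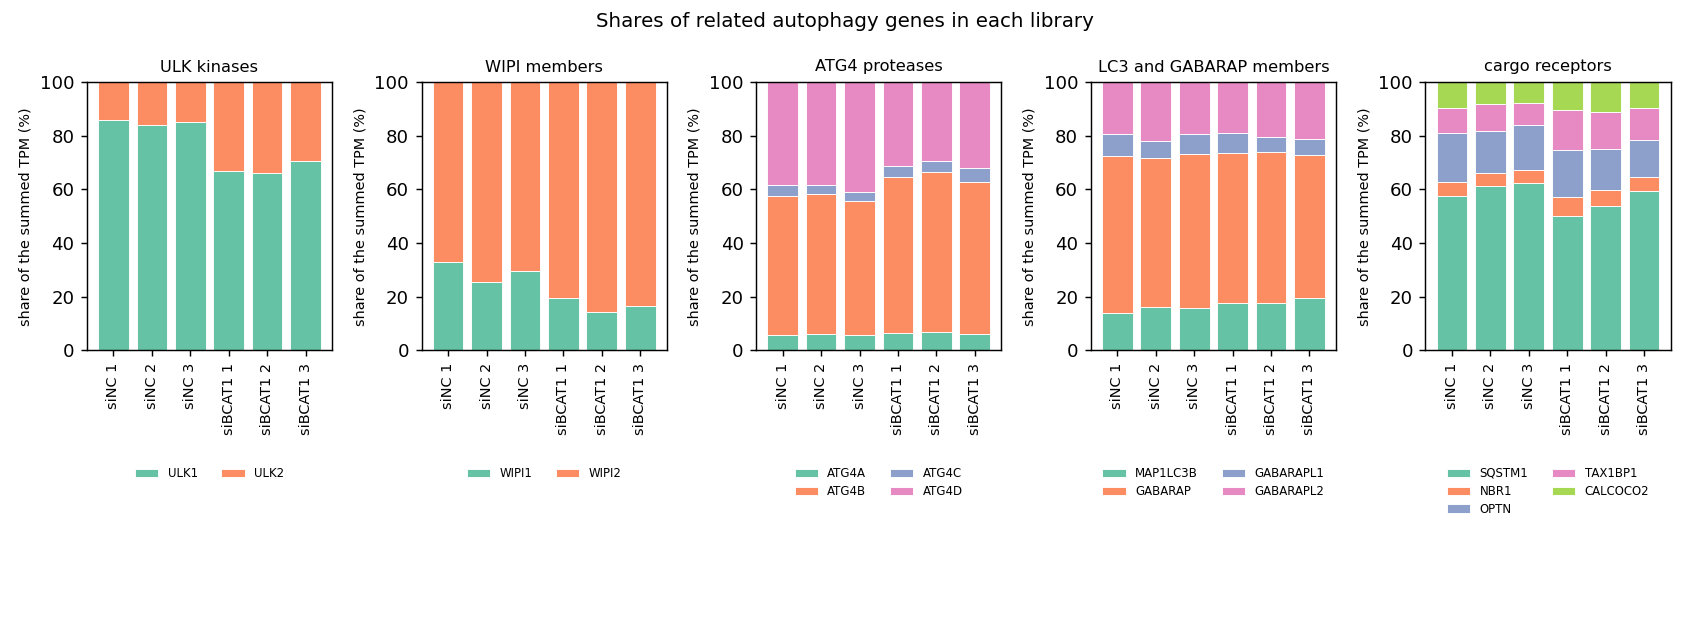
Share of the summed TPM (y axis, percent) that each gene takes within its family in each of the 6 libraries, stacked to 100%, for the ULK kinases, WIPI members, ATG4 proteases, LC3 and GABARAP members and cargo receptors. The ULK1 share is 84.2% to 85.8% in siNC and 66.3% to 70.7% in siBCAT1 libraries and the ATG4D share 38.1% to 41.0% and 29.4% to 32.1%, while GABARAP keeps 53.2% to 58.5% of its family in all 6 libraries.

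Further genes of the pathway were read from 4 lists. Of 25 further autophagosome genes 23 were tested, of which 3 rose and 1 fell (17.4% past the threshold against 27.1% of all genes, median log2 fold change 0.08). Without siBCAT1 replicate 1, 2 in all were called, with 16.9% of all genes called in that setting. WDR45, a phosphoinositide-binding protein of the same family as WIPI2, had 54.5, 48.3 and 54.6 TPM in siNC and 87.3, 86.0 and 85.3 TPM in siBCAT1 libraries, with no overlap (0.71, SE 0.07, limma adjusted p = 0.000776). Its closest relative WDR45B was level (-0.02, adjusted p = 0.854), so of the 4 genes of this family WIPI2 and WDR45 rose. VMP1 and TMEM41B, lipid scramblases of the endoplasmic reticulum needed for the membrane to grow, rose by log2 fold changes of 0.50 (adjusted p = 0.00671) and 0.37 (adjusted p = 0.0393). The call of TMEM41B was lost with no filter on low values and on leaving out any of the 6 libraries (adjusted p up to 0.123 over all alternatives). VAMP8, a SNARE in the fusion of autophagosome and lysosome, fell from 59.4 ± 8.49 to 38.1 ± 4.63 TPM (-0.63, adjusted p = 0.0112), a call lost only without siBCAT1 replicate 1 (0.0522).

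Of 18 organelle autophagy receptors 17 were tested, of which 7 rose and 2 fell (52.9% past the threshold against 27.1% of all genes, median 0.18). The 2 that fell were the related mitophagy receptors BNIP3 and BNIP3L, both known targets of the hypoxia-inducible factor. BNIP3 had 200, 174 and 197 TPM in siNC and 89.8, 94.6 and 84.4 TPM in siBCAT1 libraries, with no overlap (-1.08, SE 0.08, limma adjusted p = 0.000265). BNIP3L fell from 67.1 ± 9.17 to 46.9 ± 6.60 TPM (-0.51, adjusted p = 0.0291). This call was lost with no filter on low values and without siNC replicate 1, siNC replicate 3, siBCAT1 replicate 2 or siBCAT1 replicate 3 (up to 0.108 over all alternatives). BCL2L13, another mitophagy receptor, rose from 22.0 ± 1.79 to 37.2 ± 2.81 TPM (0.73, adjusted p = 0.0019). CCPG1, a receptor for the endoplasmic reticulum, rose by 0.43 (adjusted p = 0.00628), and NUFIP1, described as a receptor for ribosomes, by 0.49 (adjusted p = 0.0341). The call of NUFIP1 was lost with no filter on low values and on leaving out any library but siNC replicate 2 (up to 0.0993 over all alternatives). Leaving out single libraries brought the calls in this list from 9 down to between 3 and 7, the lowest without siNC replicate 1, siNC replicate 3, siBCAT1 replicate 2 or siBCAT1 replicate 3. The share of all genes called fell too, to between 16.2% and 17.5% in the settings with 3 calls among the 17 tested. The contrast with all genes given above is therefore that of the fit with all libraries.

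The list of upstream kinases held 17 genes, those of AMPK, mTORC1 and their partners and also TBK1 and DAPK1. Of the 17 genes 16 were tested, of which 1 rose and 2 fell (18.8% against 27.1% of all genes, median -0.02). With median-ratio scaling, quantile normalization or either GC correction 5 of them were called. Of all genes, 26.3% to 31.7% were called in these settings. AKT1S1 (PRAS40), an inhibitory subunit of mTORC1, rose from 43.3 ± 1.58 to 71.6 ± 6.21 TPM (0.71, limma adjusted p = 0.00124). RPTOR, the subunit of mTORC1 that binds its substrates, fell from 28.1 ± 0.222 to 18.6 ± 0.882 TPM (-0.58, adjusted p = 0.00199). DEPTOR, another inhibitory subunit, fell from 7.29 ± 2.0 to 3.44 ± 1.46 TPM (-0.92, adjusted p = 0.038). This call was lost with no filter on low values and on leaving out any library but siBCAT1 replicate 2 (up to 0.136 over all alternatives). Of 34 lysosomal genes reported to carry MiT/TFE sites, 31 were tested, of which 6 rose and 8 fell (45.2% against 27.1%, median -0.05), so the list went in both directions. CTSB (cathepsin B), a lysosomal protease, had 192, 178 and 184 TPM in siNC and 269, 249 and 251 TPM in siBCAT1 libraries, with no overlap (0.47, SE 0.06, adjusted p = 0.00152). ATP6V0D1, a subunit of the proton pump that acidifies the lysosome, fell from 145 ± 12.1 to 71.7 ± 4.99 TPM (-1.01, adjusted p = 0.000418). CTSA fell by 0.57 (adjusted p = 0.0019) and FLCN, a regulator of TFE3 and TFEB, by 0.54 on the log2 scale (adjusted p = 0.0176). The call of FLCN was lost with no filter on low values and without siNC replicate 1, siBCAT1 replicate 2 or siBCAT1 replicate 3 (up to 0.0672 over all alternatives). The lysosomal calls numbered 6 without siBCAT1 replicate 2, 7 without siNC replicate 1 and 8 without siNC replicate 3, against 14 with all libraries. The share of all genes called was 17.1%, 16.2% and 17.5% in these settings, against 27.1% with all libraries.

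**Figure D4:**
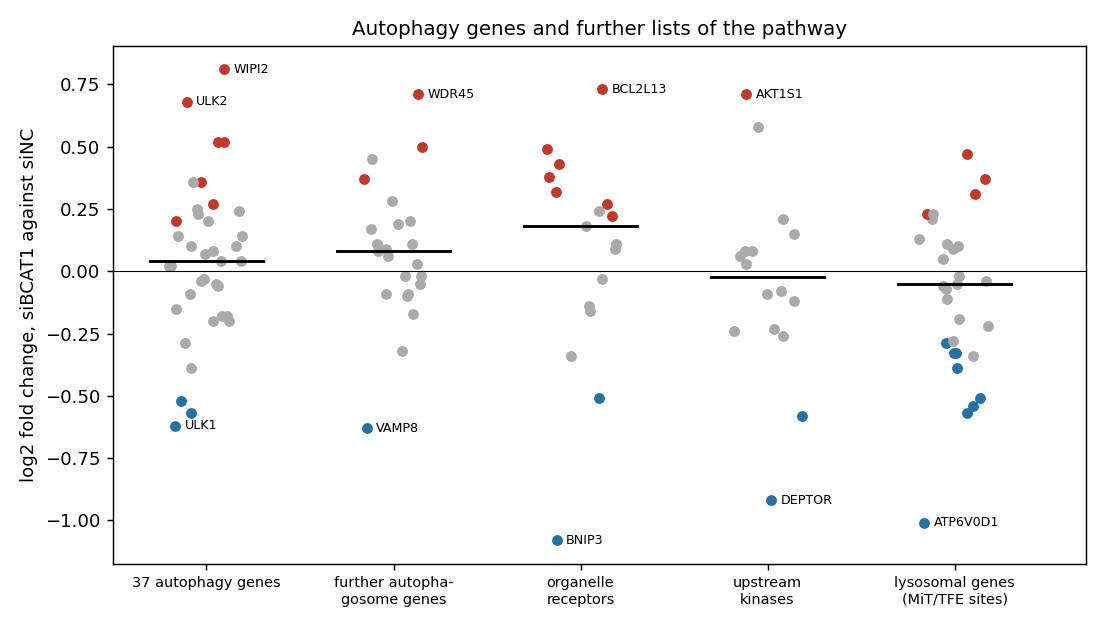
Log2 fold change (siBCAT1 against siNC, on log2(TPM + 1), y axis) of the 37 autophagy genes and of the tested genes of the 4 further lists (x axis, without the items not reported here, points spread sideways at random); red and blue points are past the threshold of 0.05, horizontal bars are medians over all tested genes of a list. Medians lie between -0.05 (lysosomal genes) and 0.18 (organelle receptors), and BNIP3 at -1.08 and ATP6V0D1 at -1.01 lie lowest.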

How the data were processed

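RNA-seq libraries (stranded mRNA kit, total RNA) of 67R cells were grouped by their labels as siNC (n = 3) and siBCAT1 (n = 3). The labels do not say whether replicates came from separate cultures, so p-values measure only the spread between these samples, which may be technical. The authors deposited TPM values per gene with 2 decimals, made by quality control (fastp), mapping (HISAT2) and assembly (StringTie) to GRCh38, per the labels and methods; versions and annotation are not given in the sources used here. TPM values hold no read depth, so no counting error can be given.

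Values were transformed to log2(TPM + 1), which understates changes of low genes, and the 14286 of 60664 genes that averaged 1 TPM or more were tested with limma 3.58.1 (lmFit, eBayes with trend; R 4.3.3), two-sided, adjusted by Benjamini-Hochberg and called under 0.05, after a test on simulated data. The plan named a count test for the case of a count table, which was not needed. Paralogue ratios were tested by exact permutation (scipy 1.17.1). Positions and coding ends are from GENCODE 29. Alternatives were no filter, a filter at 5 TPM, 0.1 as the pseudocount, median-ratio scaling, quantile normalization, a GC content and length correction by loess (span 0.5), the replicate number as a block, both together, and each library left out. The autophagy genes and lists were chosen with earlier results of these data known. Values by library were given for genes past the threshold and for ULK1, BECN1, ATG5, ATG7, MAP1LC3B, SQSTM1, TFEB, TFE3 and MITF, and from each further list the 3 largest rises and falls past the threshold without overlap were named, apart from items of the lysosomal list that are not reported here; ATG12, WIPI1 and WDR45B were added after their values were seen.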

Additional observations from a re-analysis of the deposited data

How the results depend on the processing

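Of 516 values of the 37 genes under 14 alternatives, 464 kept their direction and side of the threshold, 23 lost and 7 gained the call, and 22 changed sign, all in genes that were not past the threshold. ULK1, ULK2, BECN1, ATG9A, WIPI2, ATG4D, TAX1BP1 and BCAT1 (-2.28 to -2.03) were past the threshold in every alternative. The calls of ATG101, ATG2A and MAP1LC3B were not. The sign turned for ATG3 (-0.01), ATG5 (-0.02) and GABARAPL2 (-0.03) with median-ratio scaling, for ATG13 (-0.01), ATG3 (-0.05) and GABARAPL2 (-0.07) with quantile normalization, and for ATG3 (-0.05), ATG4C (-0.0043), ATG5 (-0.03) and GABARAPL2 (-0.06) with the correction for GC content and length, with or without the block. With single libraries left out, the values crossed 0 for ATG3 (-0.01 to 0.07), ATG4C (-0.03 to 0.12), ATG5 (-0.06 to 0.12), UVRAG (-0.1 to 0.02) and GABARAP (-0.11 to 0.03). The median of the 37 genes was 0.0017 with median-ratio scaling, 0.01 with quantile normalization and -0.0043 with either GC correction. Quantile normalization called 4 of the 37 genes higher. Upstream kinases called numbered 5 with both scalings and both GC corrections, settings in which 26.3% to 31.7% of all genes were called. Without a filter 31860 genes were tested, and 5 organelle receptors, 9 lysosomal genes and 2567 of all genes were called. With 1 library left out, the ranges were 4 to 7 autophagy genes called higher, a median of 0.01 to 0.06, 2 to 4 further autophagosome genes, 3 to 7 organelle receptors, 6 to 13 lysosomal genes, 2 to 3 upstream kinases and 2318 to 3706 of all genes, with fewer samples. The cause of these shifts was not tested.

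Same-numbered libraries deviated together by r = 0.084, 0.102 and 0.124, not all over 0.1, so the numbers were not taken as pairs, although every library correlated best with its own number. With the replicate block 4568 genes in all, 8 higher and 4 lower autophagy genes passed, the added ones being NBR1 (adjusted p = 0.0436) and SQSTM1 (0.0374), neither of which passed with the block and the GC correction together (0.0601 and 0.0529); BCAT1 stayed at -2.12. No depth is known, so limits of low genes such as ATG10, MITF and TFEB cannot be given.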
